A study of Mus musculus with 6 samples.

Results

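Schwann cells are the glia of peripheral nerves, and in the heart they ensheath the sympathetic, parasympathetic and sensory axons that run through the muscle. Those that wrap single large axons make myelin, and the others, called Remak cells, hold bundles of thin axons without myelin. Their identity rests on the transcription factor SOX10, and they exchange growth factor signals with the axons they cover. The 7 genes described here are Sox10, Gfra3, Mbp, S100b, Ngfr, L1cam and Cnp, taken by symbol from a deposited table of 46095 genes. They were chosen with their difference between the groups already known, so that difference is given as a description. How many the fit across all genes called is stated once, beside the share of all genes, and supports nothing. All 7 were present in the table.

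RNA was sequenced from 3 heart samples of STAT3cKO mice, in which STAT3 is deleted in cardiomyocytes, and 3 of wild-type mice. STAT3 carries cytokine signals from the membrane to the nucleus. The labels give no age, sex, strain, Cre line or batch and do not say that each library is a separate animal, so p-values rest on a spread among libraries that may be only technical. Hearts carry their titles' numbers, and values given for all 6 follow the order wild type 1, 3, 4, then STAT3cKO 3, 6, 91. The design compares the transcriptomes of the 2 genotypes.

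Total counts ran from 15416877 to 18264052 per heart. Stat3, the deleted gene, held 1937, 1439 and 1778 reads against 775, 982 and 1088. Heart muscle genes dominated every library: 9 cardiomyocyte genes summed to 52290 to 58453 CPM (reads relative to the library's total, scaled by the TMM method) in wild type and 58950 to 70650 in STAT3cKO. The hearts differed in atrial transcripts. Myl7, the atrial myosin light chain, had 17, 2703 and 427 reads against 511, 13 and 18. Wild type replicate 3 stood apart, with the most Myl7 and with 151 counts of Cfd, a fat cell gene, against 7 to 24 in the other hearts.

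The 7 genes are weakly expressed in these samples. Together they took 510, 523 and 336 reads against 155, 264 and 198. All 7 passed the low-count filter, which asks for about 0.575 CPM in 3 hearts. Sox10, Gfra3 and Ngfr reached that level in all 3 wild-type hearts but in only 0, 1 and 0 STAT3cKO hearts. They were kept through wild type, because with STAT3cKO this low only a higher wild-type level lets a gene pass. S100b reached it in all 3 wild-type and in 2 STAT3cKO hearts, so it did not depend on wild type alone. In samples of whole tissue, fewer Schwann cells and less RNA per Schwann cell cannot be told apart.

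Promoter sequence was matched in RefSeq (GRCm38.p6) for 4 of the 7 genes, and no entry was used for Sox10, Gfra3 or Mbp. A pair is shown, because these have the largest and the smallest difference between the groups among the 4. The stretches run 5′ to 3′ on the gene's strand, 200 bases long, and end 51 bases before the RefSeq transcript start, which differs from the GENCODE gene bounds given with each gene below. That of Ngfr is chr11:95587749-95587948 on the minus strand and that of Cnp is chr11:100574689-100574888 on the plus strand, and capitals mark a match to a motif.
Ngfr: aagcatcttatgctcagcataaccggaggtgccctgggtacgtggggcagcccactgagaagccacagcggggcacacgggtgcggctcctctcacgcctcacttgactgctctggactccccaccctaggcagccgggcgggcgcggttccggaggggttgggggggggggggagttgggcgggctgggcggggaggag
Cnp: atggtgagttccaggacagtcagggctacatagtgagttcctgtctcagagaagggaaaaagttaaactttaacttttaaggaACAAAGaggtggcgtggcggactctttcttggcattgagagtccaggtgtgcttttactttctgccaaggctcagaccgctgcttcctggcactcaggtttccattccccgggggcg

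The motifs searched on both strands were ACAAAG and ACAATG, core letters bound by SOX proteins, and TTCNNNGAA, the letters bound by STAT proteins, searched separately. Cnp held 1 ACAAAG, and the windows of Ngfr, S100b and L1cam held none of the 3 motifs. Among 32851 promoter windows of the same length, 13.6% held ACAAAG, 8.94% held ACAATG and 5.76% held TTCNNNGAA. The matches are a description of letters only.

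Sox10 (chromosome 15, 79154908 to 79165240, minus strand, GRCm38) encodes the transcription factor that Schwann cells need at every stage, and it switches on myelin genes. It held 44, 59 and 21 reads against 4, 7 and 7. The lowest wild-type heart had 3 times as many reads as the highest STAT3cKO heart, and the groups did not overlap. The mean was 2.31 ± 1.18 CPM in the wild-type group against 0.370 ± 0.0914 CPM (SD, n = 3 each), with a log2 fold change (STAT3cKO minus wild type, as throughout) of -2.61 ± 0.48 (SE). Summed over hearts, STAT3cKO held 16.3% of the wild-type reads per library size, with a 95% counting interval of 9.38 to 26.9%. This interval and those below are exact (Clopper-Pearson for ratios, Poisson for single counts) and cover counting error only.

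S100b (chromosome 10, 76253853 to 76261159) encodes a calcium-binding protein used as a Schwann cell marker and also made by fat cells. Its counts were 20, 61 and 12 against 8, 13 and 13. Wild type replicate 3 alone was high, and the other wild-type hearts lay within or near the STAT3cKO range, so the groups overlapped. The log2 fold change was -1.31 ± 0.61 (SE), and it was -0.27 without wild type replicate 3. That heart was also the highest for the fat cell genes, whose 6 members summed to 13.2 CPM there against 2.01 and 2.80 CPM in the other wild-type hearts and 0.955 to 1.86 CPM in STAT3cKO. The part of fat cells in the S100b counts was not tested.

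The receptor genes Gfra3 and Ngfr had the largest log2 differences of the 7. Gfra3 (chromosome 18, 34689898 to 34720387) encodes the co-receptor for artemin, a ligand of the GDNF family, which signals through the kinase RET. It held 48, 44 and 32 reads against 1, 13 and 2. The groups did not overlap, but STAT3cKO replicate 6 alone held most of the STAT3cKO reads. The mean was 2.28 ± 0.464 CPM against 0.341 ± 0.436 CPM (SD, n = 3 each), the log2 fold change was -2.75 ± 0.60 (SE), and the summed ratio was 14.5% (counting interval 8.06 to 24.5%). Without STAT3cKO replicate 6 the log2 fold change was -4.55. The single read in STAT3cKO replicate 3 has a counting interval of 0.0253 to 5.57 reads.

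Ngfr (chromosome 11, 95568818 to 95587735, minus strand) encodes the p75 neurotrophin receptor, found on immature and Remak Schwann cells and on sympathetic axons. It was the least expressed of the 7, with 11, 22 and 14 reads against 1, 4 and 1. The groups did not overlap. The mean was 0.882 ± 0.386 CPM in wild type beside 0.128 ± 0.115 CPM (SD, n = 3 each), the log2 fold change was -2.74 ± 0.66 (SE), or 14.4% of the wild-type reads (counting interval 5.02 to 33.7%). Without STAT3cKO replicate 6 the log2 fold change was -3.70.

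The myelin genes differed less. Mbp (chromosome 18, 82475146 to 82585637) encodes myelin basic protein, which compacts the myelin sheath, and longer transcripts of the same gene are made in other cells, including blood cells. Mbp held 94, 77 and 63 reads against 17, 43 and 34. Every STAT3cKO heart was below every wild-type heart, with 4.30 ± 0.738 against 1.94 ± 0.818 CPM (SD, n = 3 each) and a log2 fold change of -1.14 ± 0.30 (SE). Gene-level counts do not separate the transcripts.

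Cnp (chromosome 11, 100574904 to 100591729) encodes an enzyme of non-compact myelin that many other cells also express at a low level. It held 206, 158 and 140 reads against 89, 120 and 109. In CPM the lowest wild-type heart (7.68) lay just below the highest STAT3cKO heart (7.79), so the groups overlapped, and the log2 fold change was -0.48 ± 0.18 (SE). Cnp shares exon sequence with Dnajc7 on the opposite strand, whose own log2 fold change was 0.44, and without a stated strand setting reads of the pair cannot be told apart. Cnp also lies 293 kb from Stat3, and Ngfr lies 5.30 Mb from it on the same chromosome.

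L1cam (chromosome X, 73853778 to 73896105) encodes an adhesion molecule of axons and of Schwann cells without myelin. Its counts were 87, 102 and 54 against 35, 64 and 32. STAT3cKO replicate 6 lay inside the wild-type range, so the groups overlapped, and the log2 fold change was -0.71 ± 0.34 (SE). L1cam shares exon sequence with Arhgap4 on the same strand, which had a log2 fold change of 0.18.

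**Figure D1:**
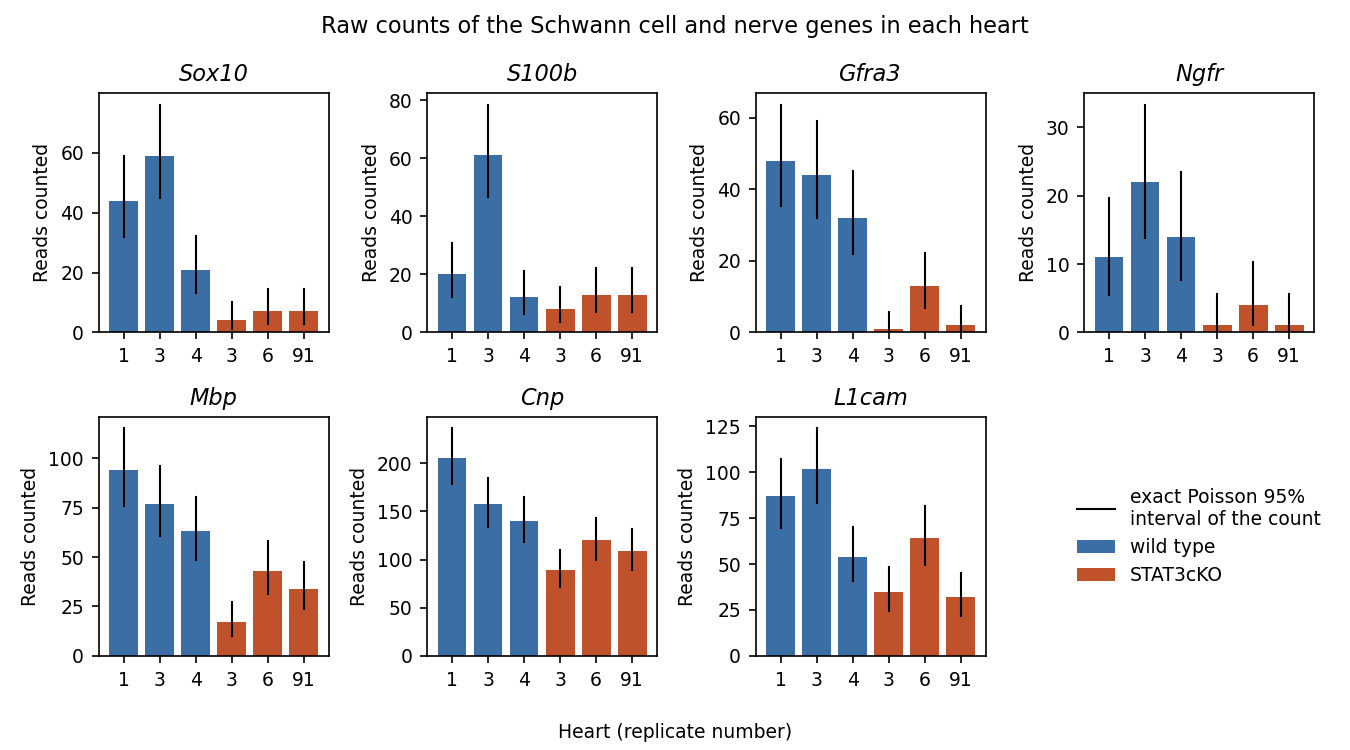
Raw read counts (y axis) of each of the 7 genes in each heart (x axis, replicate number), with wild type in blue, STAT3cKO in orange and the exact Poisson 95% interval of each count as a line. Gfra3 shows 32 to 48 reads in wild type and 1, 13 and 2 in STAT3cKO, while S100b is high in wild type replicate 3 only, at 61 reads.

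In the fit across all 14484 genes (edgeR quasi-likelihood test, adjusted p under 0.05), Sox10, Gfra3, Ngfr and Mbp were called lower, which is 4 of 7 beside 12.6% of all genes tested. The same 4 genes had every STAT3cKO heart below every wild-type heart, beside 21.5% of all genes. Since the genes were chosen on this contrast, nothing is read from either share. Of the 4 called genes, Sox10, Gfra3 and Ngfr, were kept by the filter through wild type. In the 13 other fits the log2 fold change ran from -2.93 to -2.19 for Sox10, -4.55 to -2.28 for Gfra3, -3.70 to -2.34 for Ngfr, -1.49 to -0.89 for Mbp, -1.71 to -0.27 for S100b, -1.13 to -0.44 for L1cam and -0.62 to -0.37 for Cnp. The L1cam value was -0.44 without wild type replicate 3, -0.45 without STAT3cKO replicate 91 and -1.13 without STAT3cKO replicate 6.

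**Figure D2:**
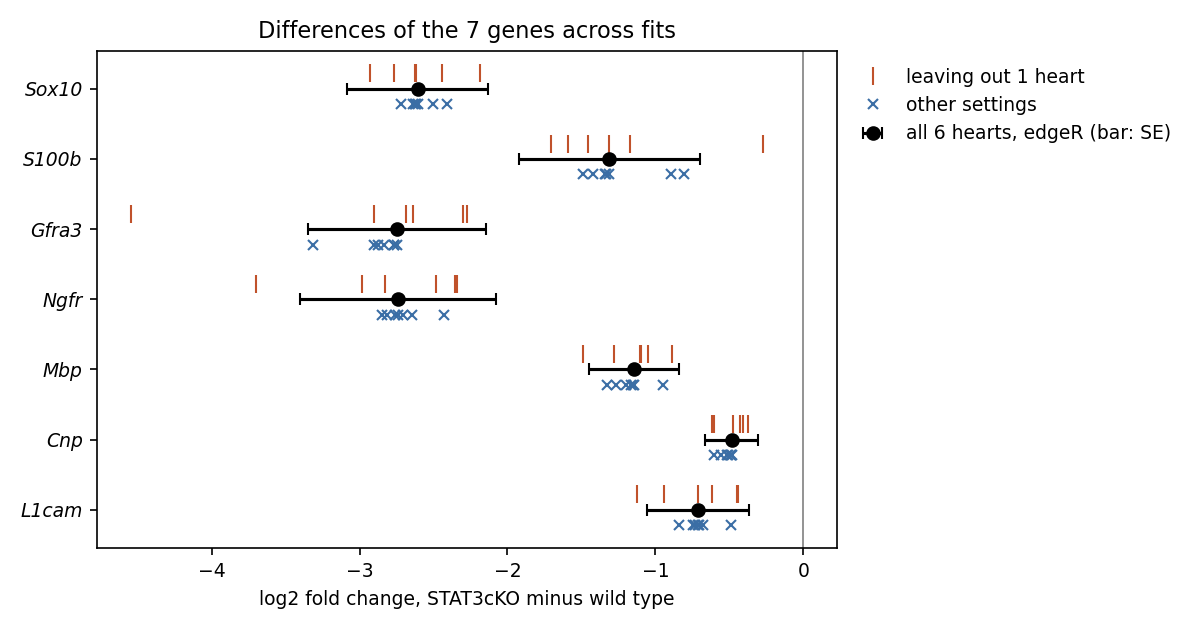
Log2 fold change, STAT3cKO minus wild type (x axis), of each gene (y axis): the black point and bar are the value with all 6 hearts and its SE, orange ticks leave out 1 heart and blue crosses are the other settings. Every value lies below 0, and the widest shifts are those of S100b, up to -0.27, and Gfra3, down to -4.55. The fits share the same hearts, and the genes were chosen on this contrast.

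Levels between genes can be compared only per transcript length, and the order in wild type is given as CPM per kilobase. Cnp was highest at 3.92 ± 0.624, followed by S100b (1.20 ± 1.09), Gfra3 (1.14 ± 0.232), Mbp (0.896 ± 0.154), L1cam (0.880 ± 0.305), Sox10 (0.832 ± 0.426) and Ngfr (0.256 ± 0.112; SD, n = 3 each). Cnp stood above S100b and Sox10 above Ngfr with no overlap between hearts. The neighbours from S100b to Sox10 overlapped and could not be ordered. In STAT3cKO the levels per kilobase were 2.80 ± 0.434 for Cnp, 0.539 ± 0.243 for L1cam, 0.472 ± 0.101 for S100b, 0.404 ± 0.171 for Mbp, 0.171 ± 0.219 for Gfra3, 0.133 ± 0.0329 for Sox10 and 0.0370 ± 0.0333 for Ngfr (SD, n = 3 each).

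Within a group, the 7 genes moved with the heart. STAT3cKO replicate 6 was the highest STAT3cKO heart for all 7 genes in CPM, wild type replicate 3 was the highest wild-type heart for 5 of 7, and wild type replicate 4 was the lowest for 6 of 7. After each gene's log2 CPM was centred on its group mean, Pearson's r over the 6 hearts was above 0 for all 21 pairs of genes, with a median of 0.66 and a range of 0.36 (Gfra3 with S100b) to 0.92 (Sox10 with S100b). The points share libraries and scaling, and the values are a description. The difference between groups was also unequal among the genes: reads of Gfra3 per read of Cnp were 0.233, 0.278 and 0.229 against 0.0112, 0.108 and 0.0183. For Sox10 per read of Cnp they were 0.214, 0.373 and 0.150 against 0.0449, 0.0583 and 0.0642. For L1cam per read of Cnp the groups overlapped, at 0.422, 0.646 and 0.386 against 0.393, 0.533 and 0.294.

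The tested genes outside the 7 whose log2 CPM correlated best with the mean profile of the 7 over the 6 hearts were Efl1 and Gstm4 (r = 0.998 each), Psmf1 (0.995), Cdc14a (0.994) and Tgfbr3 (0.992). After centring on group means they were Gstm4 and Prmt6 (0.998 each), Slco2a1 (0.995), Maml2 (0.994) and Psmf1 (0.994). With 12464 genes compared over 6 hearts, 127 exceeded 0.95 before centring and 95 after it. Correlation takes no account of the size of a difference. The log2 fold changes of Efl1, Gstm4, Psmf1, Cdc14a and Tgfbr3 were -0.37, -0.24, -0.27, -0.52 and -0.48, beside a median of -1.31 for the 7. Those of Prmt6, Slco2a1 and Maml2 were 0.07, -0.82 and -0.16.

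Atrial transcripts differed between hearts within each group, and their part in the values of the 7 genes was not tested. The 10 atrial and nodal genes summed to 85.7, 591 and 214 CPM against 273, 103 and 775. Nppa was the most abundant of them, at 32.4% of the wild-type sum. STAT3cKO 91 had the highest sum but few Myl7 reads, so the sum did not follow Myl7. With the log2 CPM of Myl7 as a covariate, an alternative added after the data were seen, the log2 fold changes were -2.50 for Sox10, -2.91 for Gfra3, -2.43 for Ngfr, -1.32 for Mbp, -0.81 for S100b, -0.68 for L1cam and -0.56 for Cnp.

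**Figure D3:**
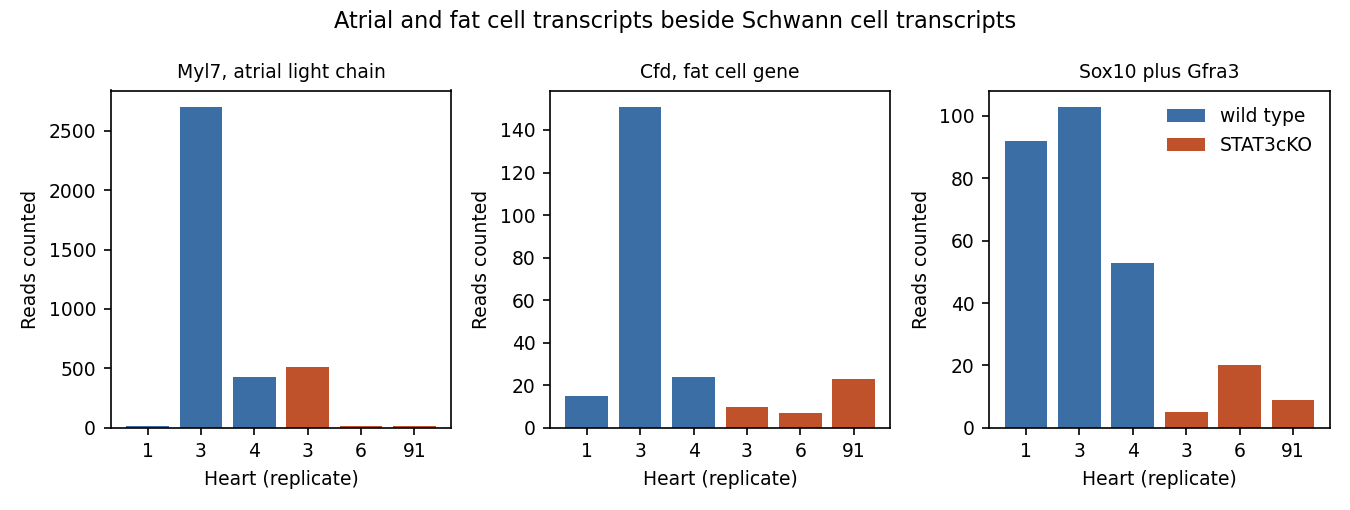
Raw read counts (y axis) of the atrial gene Myl7, the fat cell gene Cfd and the sum of Sox10 and Gfra3 in each heart (x axis, replicate number; wild type blue, STAT3cKO orange). Myl7 and Cfd peak in wild type replicate 3 at 2703 and 151 reads, and Myl7 varies within both groups, from 17 to 2703 reads in wild type and from 13 to 511 in STAT3cKO.

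Other genes of Schwann cells, from a list of 30, mostly had negative log2 fold changes (15 of 20 tested). Of the 20, 7 fell, 1 rose and 12 did not pass, with a median log2 fold change of -0.51 beside -0.0016 for all genes tested. The median transcript of these 20 had 4034 nt. With a correction for transcript length and GC content 7 were again called lower and 1 higher, and the median was -0.31. Beside these counts, 12.6% of all genes were called lower and 13.2% higher. This list and those below were chosen with earlier results of these data known, so their shares are a description and support nothing. Cdh19, a cadherin of immature Schwann cells, had 244, 134 and 197 reads against 65, 95 and 94, and fell by 0.99 ± 0.20 on the log2 scale (SE; edgeR adjusted p = 0.00365). Dhh, the signal from Schwann cells that shapes the perineurium, had 34, 36 and 23 reads against 7, 7 and 8 (log2 fold change -1.90 ± 0.39, edgeR adjusted p = 0.00437). Both genes separated the groups in every heart. Dhh, and Gpr37l1 named below, reached the filter level in no STAT3cKO heart, so they too were kept through wild type. Plekhb1, also named below, reached it in 2 STAT3cKO hearts. Egr2, the gene that rose, reached it in 2 wild-type and 3 STAT3cKO hearts.

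Genes that pattern myelin and glial contacts were among those that fell. Adgrg6, the receptor GPR126 that starts myelination, went from 3.49 ± 0.734 to 1.25 ± 0.327 CPM (SD, n = 3 each; log2 fold change -1.49, edgeR adjusted p = 0.00381), and Lgi4, a secreted partner of ADAM22 in myelination, from 6.87 ± 1.95 to 2.79 ± 0.876 CPM (-1.28, edgeR adjusted p = 0.00480). Gpr37l1 (-2.41) and Plekhb1 (-1.59) also fell. Plekhb1 was not called when wild type 3, STAT3cKO 3 or STAT3cKO 91 was left out (edgeR adjusted p = 0.0743, 0.0636 and 0.0506). Dhh, Lgi4 and Adgrg6 share exon sequence with another annotated gene, so their counts are uncertain. Other genes named below also share exon sequence, among them Art3, Sort1, Nrg1, Csf1r, Itgam, Notch3 and Tnni3, and not every case is marked.

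The gene of that list that rose was Egr2, the transcription factor of myelinating Schwann cells and also an immediate-early gene. It went from 6, 20 and 13 counts to 18, 67 and 53 (log2 fold change 1.95 ± 0.53, edgeR adjusted p = 0.0210), a call lost when wild type 1 or 4 (adjusted p = 0.0649 and 0.0799) or STAT3cKO 6 or 91 (0.0540 and 0.0507) was left out, or with Myl7 as a covariate (0.0838). Mag, an adhesion protein of myelin, had at most 5 reads in a heart and was not tested. The most abundant per length were Art3, Pmp22 and Mal, with log2 fold changes of 0.09, 0.42 and -0.25 that did not pass. Art3 alone made up 62.1% of the list's summed wild-type CPM, and 8 of the 30 genes had under 10 counts in every heart.

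Genes for contact between axon and glia, the relatives and partners of L1cam, were counted in the same way. Of 17 listed, 10 were tested, 7 fell, 0 rose and 3 did not pass, beside 12.6% of all genes called lower (median log2 fold change -0.90). Chl1, the closest relative of L1cam, had 54, 61 and 44 reads against 1, 6 and 6 (log2 fold change -3.42 ± 0.44, edgeR adjusted p = 0.000369). Cntn2, a contactin of axons that is also expressed in the cardiac conduction system, had 266, 242 and 251 reads against 60, 78 and 51 (-1.82 ± 0.19, adjusted p = 0.000113). In both genes the lowest wild-type heart lay far above the highest STAT3cKO heart, but Chl1 reached the filter level in no STAT3cKO heart and was kept through wild type.

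Cadm1 (-1.52) and Ank3 (-0.73) fell too, and both passed in every fit tried, Ank3 being a scaffold that cardiomyocytes also use. With the correction for transcript length and GC content their log2 fold changes were -1.39 and -0.34. Ank2 (-0.60), Cadm3 (-1.22) and Alcam (-1.06) completed the 7. Ank2 alone made up 56.6% of the list's summed wild-type CPM. Cadm3 shares exon sequence with Ackr1 on the same strand, so its counts are uncertain. The Ank2 call was lost with a correction for transcript length and GC content (edgeR adjusted p = 0.455), that of Cadm3 when wild type 1, wild type 3, STAT3cKO 3 or STAT3cKO 91 was left out (adjusted p = 0.0711, 0.0667, 0.0615 and 0.0502), and that of Alcam in 7 of 13 other fits, among them those without wild type 3 or 4 or STAT3cKO 3 or 91 (0.150, 0.0637, 0.0933 and 0.0651). The median transcript of the list had 6300 nt against 3069 nt for all genes tested. With the correction for length and GC content 5 of the 10 were called lower.

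Several receptors for nerve growth factors fell, and no ligand passed the test. Among 22 genes of the neurotrophin, GDNF and neuregulin systems, 17 were tested, 6 fell and 0 rose, beside 12.6% of all genes called lower (median log2 fold change -0.54), and all 6 that fell encode receptors. With the correction for length and GC content 4 genes of the list were called lower, not all of them among these 6, and the median was -0.54. Ret, the kinase partner of the GFRA co-receptors, had 179, 131 and 162 reads against 37, 45 and 32 (log2 fold change -1.86 ± 0.22, edgeR adjusted p = 0.000207). Gfra2, the neurturin co-receptor, had 39, 27 and 26 reads against 2, 10 and 1 (-2.60 ± 0.58, adjusted p = 0.00706). As with Gfra3, the most reads of Gfra2 in STAT3cKO were in replicate 6, and without that heart the log2 fold change was -4.10. Gfra2 reached the filter level in 1 STAT3cKO heart, and Ntrk2 and Ntrk3, named next, in none, so all 3 were kept through wild type.

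Ntrk3, the receptor of neurotrophin-3, had 23, 42 and 29 reads against 5, 3 and 9 (-2.30 ± 0.47, edgeR adjusted p = 0.00410). Ntrk2 (-1.85), the receptor of BDNF, Erbb4 (-1.09), a neuregulin receptor that cardiomyocytes also make, and Sort1 (-0.85), a sorting receptor and partner of p75, also fell. These 3 calls were lost with the correction for length and GC content (edgeR adjusted p = 0.0595, 0.0736 and 0.124) and with Myl7 as a covariate (0.0631, 0.0501 and 0.114). Leaving out 1 heart ended the Ntrk2 call without wild type 3 or STAT3cKO 91 (adjusted p = 0.111 and 0.0569), the Erbb4 call without wild type 4 or STAT3cKO 3 (0.0659 and 0.0529), and the Sort1 call without wild type 3 or 4 or STAT3cKO 3 or 91 (0.0816, 0.0988, 0.137 and 0.0920). Of the ligands, Nrtn had a log2 fold change of 0.13, Bdnf 0.03 and Ntf3 -0.24, and none of these passed (edgeR adjusted p = 0.671, 0.936 and 0.486). Artn, the ligand of Gfra3, had at most 5 counts in a heart. Nrg1, the axonal signal for Schwann cell survival and myelin, which the endocardium also makes, had 196, 81 and 258 reads against 20, 29 and 85 (-1.85 ± 0.58), short of the threshold (edgeR adjusted p = 0.0685), although it passed with DESeq2 (adjusted p = 0.0254), with limma-voom (0.0219), with Myl7 as a covariate (0.0458) and without wild type replicate 3 (0.0218) or STAT3cKO replicate 91 (0.0178). Erbb3, the Schwann cell receptor for Nrg1, gave -0.53 on the log2 scale (edgeR adjusted p = 0.0842).

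Few transcripts of the neurons themselves were detected. Of 31 neuron and axon genes, 22 had under 10 counts in every heart and 5, among them Th and Chat, the enzymes that mark sympathetic and parasympathetic neurons, had none. Those 5 were not detectable at this depth. Of 8 genes tested, 1 fell and 1 rose, which is 12.5% in each direction and near the shares over all genes, 12.6% lower and 13.2% higher. Ddc, the enzyme that makes dopamine and serotonin from their precursors, had 76, 65 and 90 reads against 14, 41 and 22 (log2 fold change -1.40 ± 0.34, edgeR adjusted p = 0.00998). Uchl1, a neuronal ubiquitin hydrolase with wider expression, had 180, 105 and 147 reads against 161, 156 and 308 (0.69 ± 0.21, adjusted p = 0.0326). The Uchl1 call was lost in 6 of 13 other fits, among them those without wild type 3 or 4 or STAT3cKO 91 (edgeR adjusted p = 0.112, 0.0910 and 0.124), and the gene overlaps an antisense transcript. Stmn2, of growing axons, gave -0.37 on the log2 scale (edgeR adjusted p = 0.119) and Dbh, which makes noradrenaline, 0.26 (adjusted p = 0.529).

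**Figure D4:**
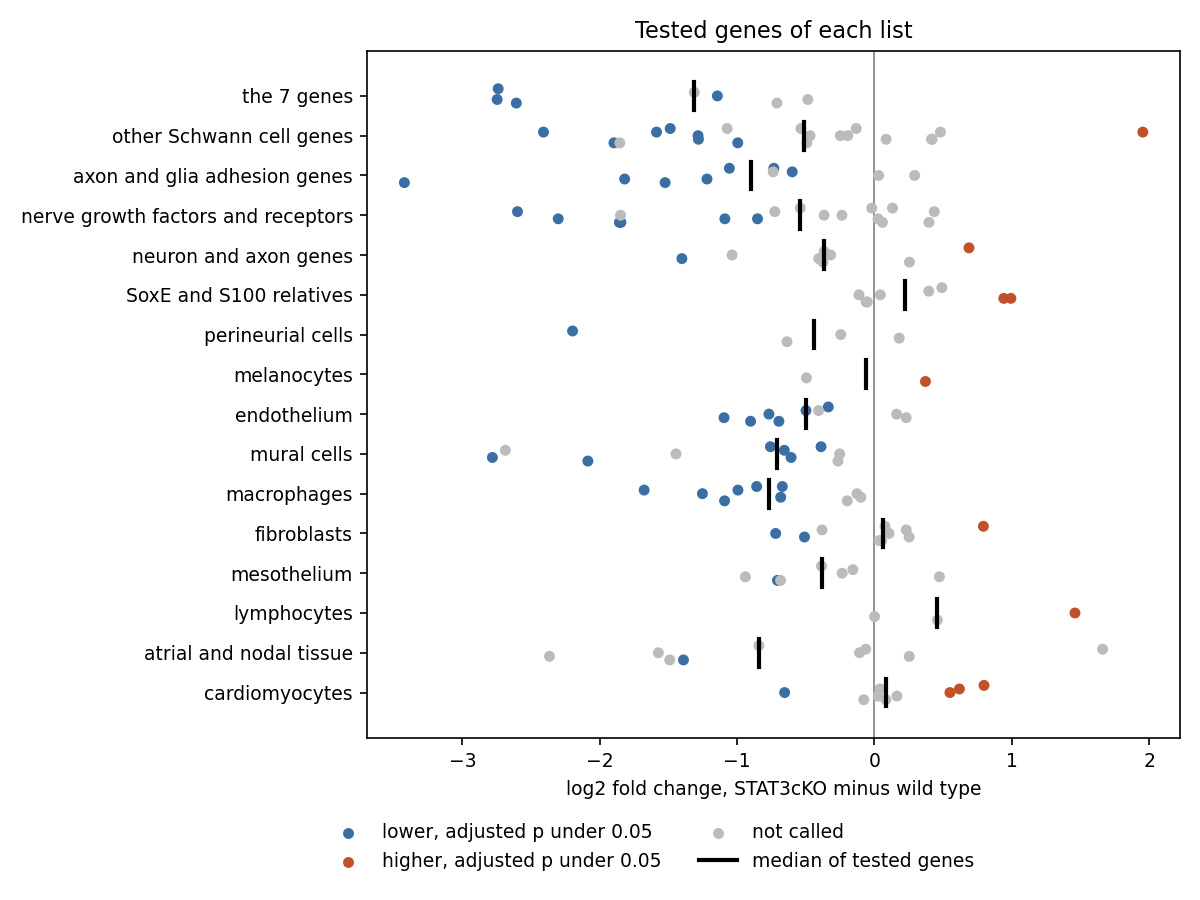
Log2 fold change, STAT3cKO minus wild type (x axis), of every tested gene of each list (y axis; fat cells, with 1 tested gene, are not drawn), blue where called lower, orange where called higher and grey where not called, with the list's median as a black bar. The medians are -1.31 for the 7 genes, -0.51 for other Schwann cell genes, -0.90 for adhesion genes, -0.54 for growth factors and receptors and -0.37 for neuron genes.

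Except with the correction for transcript length and GC content, no relative of Sox10 and S100b was called lower. Of 8 tested, 0 fell and 2 rose, S100a1, the S100 protein of heart muscle (log2 fold change 0.99 ± 0.09, edgeR adjusted p = 5.74e-05) and S100a13 (0.94 ± 0.12). Over all genes tested, 12.6% were called lower and 13.2% higher. The median transcript of this list had only 700 nt. With the correction, 1 was called lower and 2 higher, and the median log2 fold change went from 0.22 to 0.03. S100a1 was then at 0.57 and S100a13 at 0.53, both still called. Sox9 was at 38, 53 and 41 reads against 31, 11 and 75 (-0.06).

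Markers of other cells that a heart sample holds moved beside the 7 genes, and their part in the result was not tested. Of 10 macrophage genes 7 fell (median log2 fold change -0.77), of 10 genes of smooth muscle and pericytes 6 fell (-0.71), and of 9 endothelial genes 6 fell (-0.50). Beside these counts and that of fibroblasts below, 12.6% of all genes tested were called lower and 13.2% higher. Those with the smallest adjusted p were Cd163, Csf1r, Itgam and Cx3cr1 (log2 fold changes -1.68, -1.09, -0.99 and -1.25) for macrophages, Acta2, Notch3, Cspg4 and Myh11 (-2.09, -0.76, -0.61 and -2.78) for smooth muscle and pericytes, and Cdh5, Kdr, Pecam1 and Tek (-1.09, -0.77, -0.70 and -0.50) for endothelium. The Myh11 call was lost without STAT3cKO 91 (edgeR adjusted p = 0.0556) and that of Cspg4 with the correction for length and GC content (0.0535). With that correction 3 of the 10 smooth muscle and pericyte genes were called lower, with a median of -0.40, and 4 were called without wild type 1 or without STAT3cKO 91. The same correction gave 5 of 9 endothelial genes (median -0.34) and 8 of 10 macrophage genes (-0.66) called lower. The summed CPM of these lists ran from 328 to 395, 1649 to 1741 and 1272 to 1448 in wild type and from 187 to 277, 928 to 1214 and 872 to 940 in STAT3cKO. Of 10 fibroblast genes 2 fell, Col1a2 (-0.72) and Col1a1 (-0.51), and Dcn rose (0.79), with a median of 0.07, and their sum overlapped, at 2838 to 4184 CPM against 3639 to 4395. Col1a1 was not called in 5 of 13 other fits, among them those without wild type 3 or STAT3cKO 3 or 6 (edgeR adjusted p = 0.104, 0.138 and 0.154). The summed CPM in STAT3cKO was 63.8% of wild type for macrophages, 64.5% for smooth muscle and pericytes, 68.4% for endothelium and 116% for fibroblasts. For the whole list of 30 other Schwann cell genes it was 101%, and the groups overlapped. For the 28 left without Art3 and Pmp22, the most abundant, it was 74.6%. That trim was not planned and was made for no other list. It took out genes with log2 fold changes of 0.09 and 0.42, so 74.6% cannot be set beside the shares of the other lists.

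Pigment cells, lymphocytes and nerve sheath cells share some of the 7 transcripts, and their part was not tested. The calls below stand beside 12.6% of all genes tested called lower and 13.2% higher. Of 8 genes of pigment cells, which also use Sox10, Tyr and Oca2 had no count and Dct had 31, 77 and 23 reads against 30, 15 and 40, and the 1 gene called was Mitf, which was higher (log2 fold change 0.37) and is also made by heart muscle. Mitf was not called in 6 of 13 other fits, among them those without wild type 1 or 3 (edgeR adjusted p = 0.115 and 0.105) or STAT3cKO 6 or 91 (0.0680 and 0.0623). The summed level was 43.9 to 56.0 CPM in wild type and 57.7 to 65.8 in STAT3cKO, of which Mitf made up 93.3% in wild type. Lymphocyte genes, of interest because of Mbp, summed to 2.36 to 4.71 CPM in wild type and 4.22 to 7.61 in STAT3cKO, and Cd79b rose (log2 fold change 1.46, edgeR adjusted p = 0.0442). Cd79b was kept by the filter through STAT3cKO, and its call was lost in 10 of 13 other fits and found in only 1 of the 6 that left out a heart, the one without STAT3cKO 6 (adjusted p up to 0.218, without STAT3cKO 91). Of the perineurial genes, Moxd1 had 37, 22 and 15 reads against 0, 9 and 5 (log2 fold change -2.20 ± 0.66, edgeR adjusted p = 0.0288), kept by the filter through wild type and not called when wild type 1 or 3 (0.111 and 0.0657) or STAT3cKO 3 or 91 (0.0625 and 0.0816) was left out, and the other 3 tested did not pass.

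The remaining lists each held few calls, beside 12.6% of all genes tested called lower and 13.2% higher. The shares called lower were 11.1% for atrial and nodal, 14.3% for mesothelial and 11.1% for cardiomyocyte genes, near the share over all genes. Hcn4 fell among 9 tested atrial and nodal genes (log2 fold change -1.39), and the sum of that list overlapped between the groups. Upk3b fell among 7 mesothelial genes (-0.71), a call lost when wild type 1 or STAT3cKO 3 was left out (edgeR adjusted p = 0.0724 and 0.0556), and the only fat cell gene tested, Cfd, did not pass (-2.15, adjusted p = 0.245). Of 9 cardiomyocyte genes 3 rose, Myl2 (0.80), Tnni3 (0.62) and Tnnt2 (0.55), and Ryr2 fell (-0.65). The calls of Tnni3, Tnnt2 and Ryr2 were lost with the correction for length and GC content (edgeR adjusted p = 0.105, 0.0654 and 0.364).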

How the data were processed

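The authors deposited raw read counts per gene for the 6 hearts, whole numbers with no normalization, per the file headers and values. HISAT2 and the build GRCm38 are named in the submitters' processing notes. The way reads were assigned to genes (program, annotation, strand, multiple mapping) was not given in the sources used here. The 7 genes and the 16 gene lists (203 genes) beside them were chosen with earlier results of these data known.

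Genes were filtered with filterByExpr (minimum count 10), scaled by TMM and compared by the robust quasi-likelihood F test of edgeR 4.0.16 in R 4.3.3, with genotype as the only term, Benjamini-Hochberg adjustment over 14484 genes and a threshold of 0.05. Each SE is the log2 fold change over the root of F. No set test was run. Transcript lengths, GC content, positions and overlaps come from GENCODE M21 (GRCm38), using the longest transcript per symbol (13580 of the tested genes matched). From each list the called genes with the 4 smallest adjusted p were named, or the 1 with the smallest p, and from the Schwann and neuron lists the 3 most abundant per length. Other genes were named after their values were seen, and some genes of the lists are not reported here. For pattern likeness, log2 CPM had a prior count of 2.

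Alternatives were DESeq2 size factors, library size alone, no low-count filter, DESeq2 1.42.0, limma-voom (limma 3.58.1), an offset correcting each heart for length and GC content (splines, 5 degrees of freedom) and leaving out each heart. The Myl7 covariate was added later. The edgeR step was checked on simulated counts.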

Additional observations from a re-analysis of the deposited data

How the results depend on the processing

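No paired analysis was possible because the labels give no pairing of hearts between the groups. All 7 log2 fold changes stayed below 0 in all 13 other fits, and their median, -1.31, ran from -1.71 to -1.10. That range was set by leaving out 1 heart. The other fits reuse the same hearts, and the 7 genes were chosen on this contrast, so the constant sign supports nothing. The counts of genes called lower, leaving out each heart in turn, ran from 5 to 9 for other Schwann cell genes (7 with all hearts), 4 to 6 for growth factors and receptors (6), 5 to 8 for adhesion genes (7) and stayed at 1 for neuron genes. Over all genes, these fits gave 2435 (without wild type replicate 4) to 3886 calls, against 3738 with all hearts. With no low-count filter there were 4383 calls over all genes, and 11 other Schwann cell genes and 2 neuron genes were called lower in place of 7 and 1. Library size alone moved the share of calls that were higher from 51.3% (1918 higher, 1820 lower) to 29.0% (1109 higher, 2714 lower), with a median change over all genes of -0.11 (log2). The cause of these shifts was not tested. Depth limits Ngfr and Gfra3 most, with 6 and 16 reads in all STAT3cKO hearts together.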
